A study of Mus musculus with 29 samples.

Results

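The endothelial cells of the young mouse brain, the cells that line its blood vessels, were compared between stroke at day 2 and sham surgery at day 2. The cells were those that the authors' deposited annotation codes as EC at its coarser level, in the brain libraries of mice 8 to 10 weeks old. There were 4270 such cells among 29852 cells of the 8 libraries and 106977 cells of the 29 libraries of the series. Their counts were summed within each library, so that the library and not the cell was the replicate, and all genes were examined.

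All mice were C57BL/6J, and the young ones were male. Stroke was made by blocking the middle cerebral artery for a limited time. Each brain library pooled 4 to 5 hemispheres and was made by Drop-seq, in which cells are captured in droplets with barcoded beads. The sort took microglia, CD45-high leukocytes and endothelial cells, the last by high Ly6C without CD45, after digestion with papain in the presence of actinomycin D, which blocks transcription, Brilliant Blue G and AP-5. Young sham at day 2, young stroke at day 2 and young stroke at day 14 had 4 libraries each. Aged mice, 17 to 20 months old, had 2 sham libraries (1 male, 1 female) and 3 stroke libraries (1 male, 2 female) at day 2. The deposited notes give the ipsilateral hemisphere for stroke and only a hemisphere for sham. Injured and spared tissue of that hemisphere were not separated, and each library was counted as 1 sample of its group. Nothing in the sources used here says whether libraries of a group came from separate surgery days, so p-values measure the spread between these libraries.

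Brain endothelial cells form the blood-brain barrier. They join each other by tight junctions, carry few vesicles, and take up nutrients and pump out drugs through dedicated transporters. Wnt ligands of neighbouring cells maintain this state through beta-catenin and its partner LEF1. Along the vessel, arterial, capillary and venous endothelial cells use partly different genes, and the venules are where leukocytes normally leave the blood, after rolling on selectins and binding to adhesion molecules.

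The EC cells of the 8 libraries carried the endothelial markers. A list of 20 pan-endothelial genes averaged 1589 CPM per gene (CPM, the counts of a gene per 1000000 counts of the sum) in the EC code, 465 in the mural code MC and at most 28.9 in any other code. The summed level of that list was 27856 to 39676 CPM in sham and 32814 to 36915 CPM in stroke, so the groups overlapped. Each sham library held 295 to 617 EC cells and 100317 to 377240 counts, and each stroke library 360 to 1171 cells and 343753 to 730352 counts. The median count per EC cell was 286 to 606 in sham and 476 to 1008 in stroke (exact permutation test of the means, two-sided p 0.0857). No EC barcode occurred in more than 1 of the 8 libraries. The median mitochondrial share of EC counts was below 2% in sham replicate 1 and stroke replicates 1 and 2 (0.523% to 1.12%) and 5.47% to 8.62% in the other 5.

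Markers of the other cell types that the sort could hold were summed in the EC libraries. None of the 106 genes of 12 such lists passed the test, and 14 of them had enough counts to be tested. Of 73 tested genes of any kind that another code held at over 10 times the EC level, 9 were called, against 13.3% of all genes tested, 5 of them higher (Arhgdib, Ctsz, Ifitm1, Lgmn and S100a6) and 4 lower (Apoe, Ccrl2, Kctd12 and Pmaip1), and they were singled out after their values were seen. Lgmn, a lysosomal protease gene that microglia held at 3503 CPM, had 0, 0, 0 and 0 CPM in the 4 sham libraries and 114, 69.7, 58.9 and 0 CPM in the 4 stroke libraries (adjusted p 0.0341). The microglial list summed to 0 to 29.6 CPM in sham and 0 to 55.7 CPM in stroke. Within it P2ry12, Siglech, Gpr34, Fcrls and Cx3cr1 were at 0 in all 8 libraries. How the submitters corrected the counts is not stated in the labels, so values of 0 cannot show that an RNA was absent. The general leukocyte list summed to 18.3 to 482 CPM in sham and 0 to 87.1 CPM in stroke, the neutrophil list to 104 to 367 CPM in sham and 90.6 to 167 CPM in stroke, and the list of T, NK and B cells to 0 to 10.4 CPM in sham and 1.90 to 10.7 CPM in stroke. The monocyte and macrophage list reached 548 to 1147 CPM in sham and 437 to 1627 CPM in stroke, mostly through Ly6c2 and Fn1 in 7 libraries. In sham replicate 4, the highest sham library, Lyz2 stood at 429 CPM and Cd74 at 129 CPM, both at 0 elsewhere, and Ms4a7 and Arg1 were at 0 throughout. The mural list was 119 to 659 CPM in sham and 90.6 to 286 CPM in stroke. Its leading gene Rgs5, a pericyte marker, was 93.3 to 604 CPM in sham and 55.7 to 222 CPM in stroke (log2 fold change -1.93, adjusted p 0.0531), while Pdgfrb and Abcc9 were at 0. Rgs5 was called lower with the split by mitochondrial share as a term in the fit (-1.42, adjusted p 0.0388) and among the 5 libraries with the higher share (-1.84, adjusted p 0.0189). Haemoglobin and other erythrocyte genes varied widely, at 42.2 to 3811 CPM in sham and 0 to 7120 CPM in stroke, and the groups overlapped. Sums were 484 to 654 CPM in sham and 574 to 803 CPM in stroke for the oligodendrocyte list, 101 to 327 CPM in sham and 105 to 196 CPM in stroke for the astrocyte list and 67.6 to 316 CPM in sham and 69.6 to 141 CPM in stroke for the neuron list. They were 46.4 to 109 CPM in sham and 31.4 to 55.2 CPM in stroke for the choroid plexus and ependyma list and 0 to 2.59 CPM in sham and 0 to 21.4 CPM in stroke for the fibroblast list. Fcer1g, a leukocyte gene, was 0 to 139 CPM in sham and 0 to 52.3 CPM in stroke, and Lcn2, listed with neutrophils and made by endothelium too, was 36.3 to 367 CPM in sham and 87.1 to 165 CPM in stroke. Cells coded MdC numbered 43 to 99 per sham library and 1468 to 2180 per stroke library. Microglia numbered 2093 to 3293 in sham and 58 to 1324 in stroke. Pooled over the 8 libraries, some genes named below stood higher in another code than in EC. They included Lrg1 (Gran 2615 CPM, EC 531), Vim (MdC 2979, EC 1771) and Timp1 (MdC 88.3, EC 48.6). Tubb6 (MdC 174, EC 89.7) and Upp1 (Gran 183, EC 67.4) were others. Sparc (EC 4496, microglia 2805) stood higher in EC. The part of these RNAs and of the cell mix in the results was not tested.

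Endothelial cells made up 15.8%, 13.1%, 10.5% and 7.76% of the cells in the 4 sham libraries and 10.2%, 13.7%, 14.5% and 26.1% in the 4 stroke libraries. The ranges overlapped. The mean share was 11.8% ± 3.43 in sham and 16.1% ± 6.90 in stroke (SD, n = 4 each), a difference of 4.34 percentage points (exact permutation test, two-sided p 0.343, where the smallest p that 4 against 4 allows is 0.0286). Without stroke replicate 4 the difference was 1.02 points (exact p 0.686). The sort can set these shares, and the share of EC among cells other than leukocytes and microglia was 93.0% ± 2.52 and 97.3% ± 2.13 (SD, n = 4 each, exact p 0.0571).

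Endothelial genes changed in both directions at day 2 after stroke. The quasi-likelihood test of edgeR called 778 of 5833 genes (13.3%) at an adjusted p under 0.05, 402 of them higher (6.89%) and 376 lower (6.45%). The median log2 fold change over all genes tested was 0.0048. In 1175 genes (20.1%) the 4 stroke libraries did not overlap with the 4 sham libraries, 639 of them with stroke above (11%) and 536 below (9.19%). With library size alone as the scaling, 302 genes were higher and 467 lower. The count was 390, 320 and 360 when sham replicate 2, 3 or 4 was absent, and 511 and 504 when stroke replicate 3 or 4 was. Only cells with at least 500 counts gave 415 calls. Among the 5 libraries with the higher mitochondrial share 926 genes were called, and among the 3 with the lower share, 1 sham library against 2 of stroke, 40. With the split as a term in the fit, 847 genes were called, 756 of the 778 among them, and among the named genes Ctgf was lost (adjusted p 0.0522). Among the 5 libraries with the higher share, Atp8b1, Mcam, Selp and Tmem173 had too few counts to be tested, and the tested named genes called on all 8 that were not called there, with their adjusted p, were Ehd4 (0.309), Ocln (0.268), Smad7 (0.255), Apoe (0.231), Pltp (0.169), Alpl (0.164), Ddx60 (0.123), Tgfb2 (0.115), Txnrd1 (0.113), Il4ra (0.0848), Ftl1 (0.0797), Ltbp4 (0.0762), Ndrg1 (0.0682), Reck (0.0671), Jag1 (0.0646) and Hes1 (0.0628). In what follows, changes given without a unit are log2 fold changes of stroke over sham, ± after a change is its standard error, and the adjusted p is that of edgeR. The gene lists were chosen with earlier results of these data known. Counts of called list members beside the shares of all genes therefore describe the lists and are no test. Some genes belong to several lists, such as Ctnnb1 to the Wnt and junction lists, so counts of different lists are not separate results.

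Among called genes with separate groups and a mean of at least 20 CPM, several of those with the highest fold changes had few or no counts in sham endothelium. Timp1, which encodes a secreted inhibitor of matrix metalloproteinases (X:20870166-20874737 in GRCm38.p6), had 0, 0, 0 and 0 CPM in the 4 sham libraries and 68.5, 94.1, 91.0 and 72.3 CPM in the 4 stroke libraries. Every stroke library stood above a sham group without a single count, which put Timp1 at least 21.6-fold higher (adjusted p 0.0005), by a floor of 3 counts over the group. Such floors, and the intervals of ratios below, cover counting error only. Pdlim1, which encodes an actin-associated PDZ and LIM protein, had 3 counts in sham and 158 in stroke, a ratio of 24.0 (95% counting interval 8.07 to 118). Tubb6, a beta-tubulin, had 2.59, 12.7, 9.14 and 0 CPM in the 4 sham libraries and 145, 143, 112 and 157 CPM in the 4 stroke libraries (log2 fold change 4.42 ± 0.54, adjusted p 0.000387). Upp1, which encodes the uridine-cleaving enzyme uridine phosphorylase, rose by 4.37 (adjusted p 0.000569). Tmem173, which encodes the cytosolic DNA response adaptor STING, had 2 counts in sham and 94 in stroke, a ratio of 21.4 (95% counting interval 5.77 to 179.7). Microglia held Tmem173 at 216 CPM against 32.9 CPM in endothelium. Adamts9, a matrix protease gene, had 12.96, 0, 0 and 0 CPM in the 4 sham libraries and 152, 160.2, 77.6 and 62.6 CPM in the 4 stroke libraries (adjusted p 0.00332). All its sham counts lay in sham replicate 1, and its fitted change was 3.78 to 8.09 with 1 library left out. Igfbp4, which encodes an IGF-binding protein, rose by 3.25 (adjusted p 0.00404), and Atp8b1, a phospholipid flippase, by 3.01 (adjusted p 0.0082). The calls of these 8 genes held without any single library.

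Among abundant genes, those with a mean of at least 300 CPM, the highest fold changes with separate groups were in Lrg1, Ecscr, Fkbp1a, Esd, Ctla2a and S100a11. Ecscr, which encodes a surface protein of endothelial cells, had 262, 177, 109.7 and 150.1 CPM in the 4 sham libraries and 696, 839.5, 880.4 and 1046 CPM in the 4 stroke libraries (log2 fold change 2.25 ± 0.28, adjusted p 0.000387). Fkbp1a, which encodes the small immunophilin FKBP12, had 415, 342, 228 and 257 CPM in the 4 sham libraries and 1295, 1229.7, 1228 and 1556 CPM in the 4 stroke libraries (log2 fold change 2.07 ± 0.24, adjusted p 0.000387). In both genes the lowest stroke library was far above the highest sham library. Separate groups as such were a condition for naming these abundant genes, Lrg1 among them. Esd, which encodes an esterase, rose by 1.99 (adjusted p 0.000387), and S100a11, a calcium-binding protein gene, by 1.87 (adjusted p 0.00446). Cells coded Gran held S100a11 at 6419 CPM against 742 CPM in endothelium. Ctla2a, which encodes a cysteine protease inhibitor, was 813 to 1849 CPM in sham and 3139 to 5973 CPM in stroke (1.92 ± 0.32, adjusted p 0.00217).

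**Figure D1:**
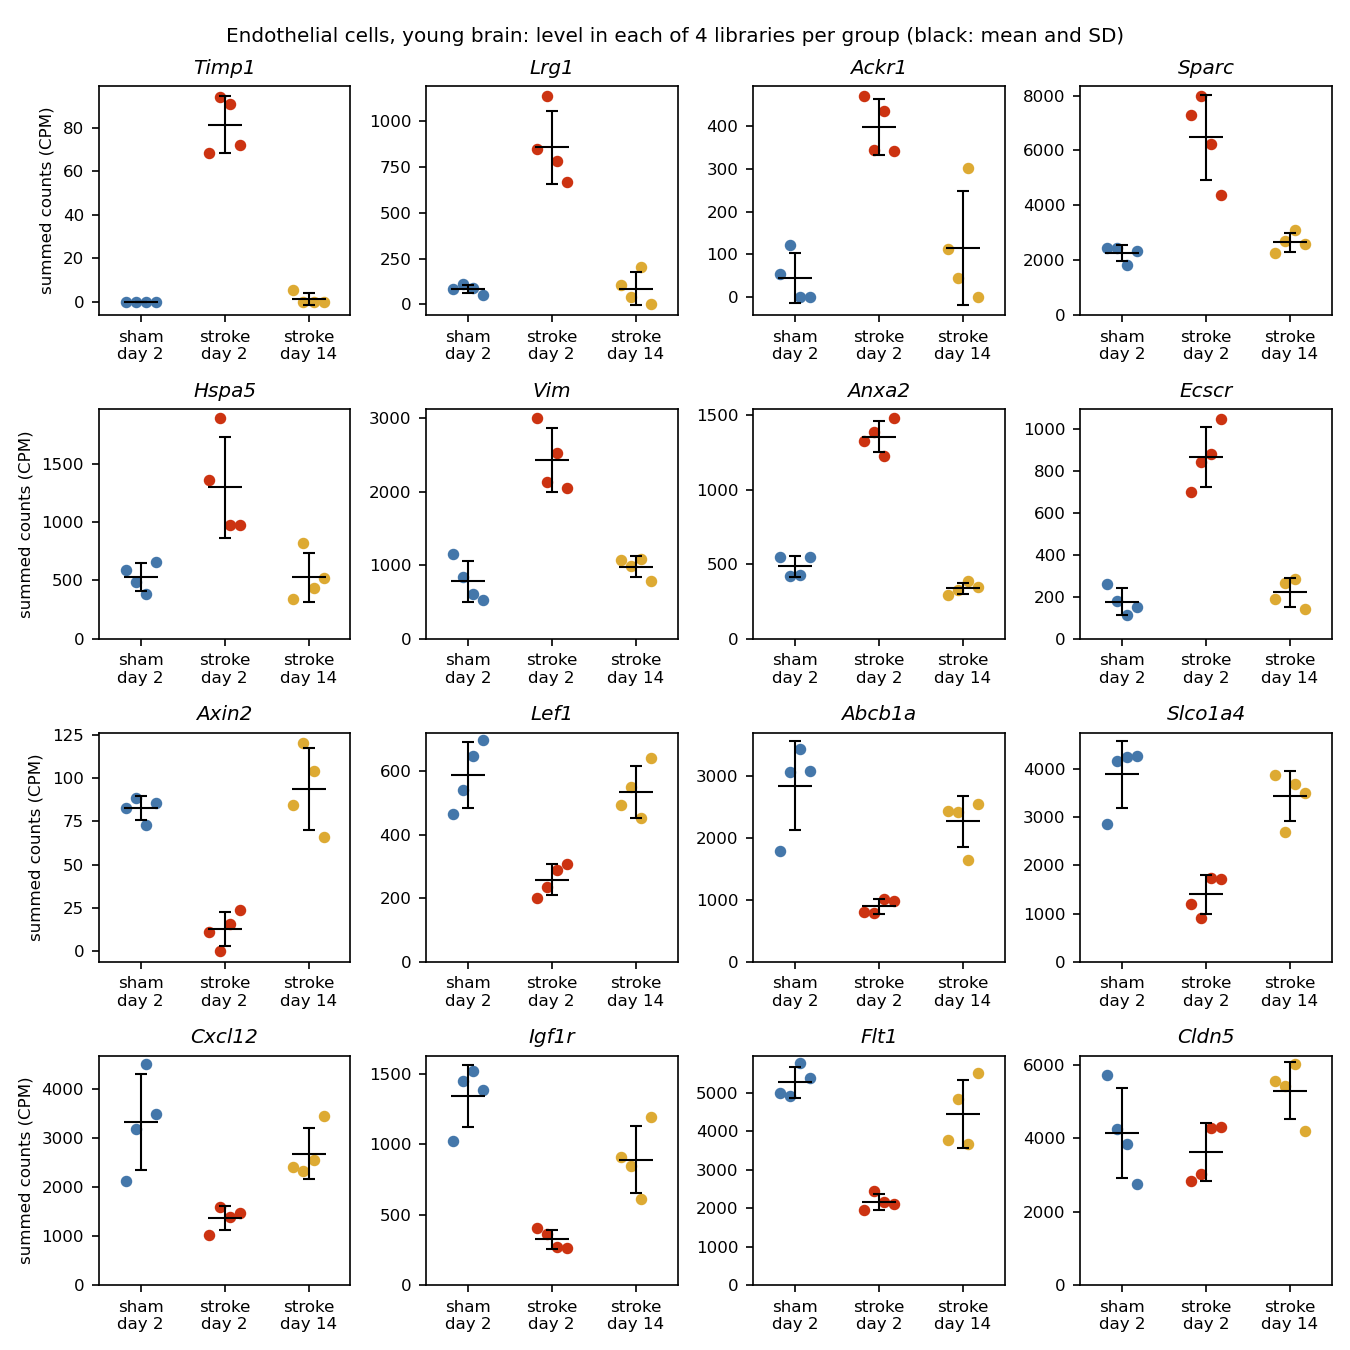
Level of 16 genes in the endothelial sums (vertical axes, CPM) of each library in young sham day 2, stroke day 2 and stroke day 14, with the mean and SD of 4 libraries in black. Stroke day 2 libraries lie apart from sham for all genes shown except Cldn5, whose groups overlap, and Timp1 is at 0 in all 4 sham libraries.

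Under the same rules, the lowest fold changes included those of Axin2, Trp53inp1, Esyt2, Notum and Igf1r. Axin2, a feedback inhibitor and classical target of Wnt signalling (11:108917828-108950783), had 82.9, 88.7, 73.1 and 85.8 CPM in the 4 sham libraries and 11.4, 0, 16.1 and 24.1 CPM in the 4 stroke libraries (log2 fold change -2.51 ± 0.43, adjusted p 0.00286). The sham libraries lay within a narrow range, and the stroke libraries were all below it. Notum, which encodes an enzyme that inactivates Wnt ligands, had 176, 156, 292 and 289 CPM in the 4 sham libraries and 36.1, 45.3, 34.8 and 83.5 CPM in the 4 stroke libraries (log2 fold change -2.09 ± 0.33, adjusted p 0.00162). Igf1r, the receptor for insulin-like growth factor 1, had 1021, 1448, 1517 and 1383 CPM in the 4 sham libraries and 403, 362, 270.3 and 262 CPM in the 4 stroke libraries (log2 fold change -2.05 ± 0.25, adjusted p 0.000387). Separate groups were a condition for naming the genes of this paragraph and add no support to their calls. Esyt2, which encodes a protein that tethers the endoplasmic reticulum to the plasma membrane, changed by -2.13 (adjusted p 0.00286). Trp53inp1, a p53 target gene, changed by -2.33 (adjusted p 0.00438), Mfhas1 by -1.97 (adjusted p 0.00157), and the RhoGEF and RacGAP gene Abr by -1.84 (adjusted p 0.00509). Atp10a, a lipid flippase gene, changed by -1.82 (adjusted p 0.00286), Dixdc1, a positive Wnt regulator, by -1.81 (adjusted p 0.00672), and the cell cycle inhibitor gene Cdkn2b by -1.79 (adjusted p 0.00414). Sema3c, which encodes a secreted semaphorin, was 492 to 1439.7 CPM in sham and 258 to 386 CPM in stroke (-1.69, adjusted p 0.00404), and Ccdc141 was 827 to 1941 CPM in sham and 308 to 665 CPM in stroke (-1.74, adjusted p 0.00446). Amot, a regulator of endothelial migration, was 25.9 to 129 CPM in sham and 0 to 20.9 CPM in stroke (-1.93, adjusted p 0.0446), and Ddx60 was 38.0 to 73.1 CPM in sham and 0 to 20.9 CPM in stroke (-1.92, adjusted p 0.0439). The Amot call was lost without sham replicate 2, 3 or 4 or stroke replicate 1, 2, 3 or 4 (adjusted p up to 0.162), and the Ddx60 call was lost without sham replicate 1, 2, 3 or 4 or stroke replicate 1, 2 or 3 (adjusted p up to 0.147).

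Calls among transport genes of the blood-brain barrier were all lower. Of 21 tested genes of that list, 10 fell and 0 rose, against 6.45% and 6.89% of all genes, and the median log2 fold change was -0.91. Abcb1a, which encodes the drug efflux pump P-glycoprotein (5:8567091-8748575), had 1791, 3057, 3427 and 3077 CPM in the 4 sham libraries and 795, 787, 1014 and 972 CPM in the 4 stroke libraries (log2 fold change -1.67 ± 0.24, adjusted p 0.00123). Slco1a4, an organic anion transporter gene (6:141805438-141856284), had 2856, 4176, 4249.7 and 4267 CPM in the 4 sham libraries and 1208, 916, 1742 and 1723 CPM in the 4 stroke libraries (log2 fold change -1.47 ± 0.25, adjusted p 0.00286). In both genes each stroke library was below each sham library, and sham replicate 1 was the lowest of its group. Slco1c1, which encodes a thyroid hormone transporter, was 1452 to 1892 CPM in sham and 571 to 795 CPM in stroke (-1.28 ± 0.21, adjusted p 0.00187). Slc7a1, which encodes a cationic amino acid transporter, changed by -1.72 (adjusted p 0.000569), and the zinc transporter gene Slc39a10 by -1.31 (adjusted p 0.00286). Tfrc, the transferrin receptor, changed by -1.47 (adjusted p 0.00985), and this call was lost without sham replicate 3 (adjusted p up to 0.0512). Lrp8, Slc38a3 and Slc40a1 were also called lower. The genes of the glucose transporter GLUT1, Slc2a1 (933 to 1979.9 CPM in sham and 1092 to 1343 CPM in stroke), and of the lipid transporter Mfsd2a (182 to 306 CPM in sham and 66.2 to 203 CPM in stroke) were not called (adjusted p 0.59 and 0.078). They were singled out after their values were seen. Without sham replicate 3, 6 genes of the list were called lower.

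In the Wnt and beta-catenin list the calls were all lower, with 5 of 18 tested genes called lower, 0 higher and a median of -0.81, where 6.45% of all genes tested were called lower. Besides Axin2 and Notum, Lef1, the transcription factor partner of beta-catenin, had 466, 540.4, 649 and 697 CPM in the 4 sham libraries and 202, 237, 289 and 307 CPM in the 4 stroke libraries (log2 fold change -1.17 ± 0.21, adjusted p 0.00374), with separate groups. Reck, which encodes a co-receptor for Wnt7 ligands, was 77.7 to 109.7 CPM in sham and 34.8 to 54.6 CPM in stroke (adjusted p 0.0167), and this call was lost without sham replicate 3 or 4 (adjusted p up to 0.0563). Ctnnb1, beta-catenin itself, changed by -0.92 (adjusted p 0.0285), and this call was lost without sham replicate 2, 3 or 4 or stroke replicate 2, 3 or 4 (adjusted p up to 0.11). Without sham replicate 3 or 4, 3 genes were called lower. The receptor gene Fzd4, the co-receptor genes Tspan12 and Adgra2, and Foxf2, Foxq1 and Sox17 were tested and not called. The summed level of the 26 genes was 3623 to 4076 CPM in sham and 2155 to 2363 CPM in stroke, and the groups did not overlap.

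Calls among junction genes were all lower, and those among general endothelial genes went in both directions. Of 13 junction genes tested, 3 were called lower and 0 higher, against 6.45% and 6.89% of all genes tested, and the median was -0.19. Tjp1, which encodes the tight junction scaffold ZO-1, had 417, 494, 512 and 439.6 CPM in the 4 sham libraries and 253, 240.4, 286 and 202 CPM in the 4 stroke libraries (log2 fold change -0.92 ± 0.21, adjusted p 0.0113), with no overlap. Ocln, occludin, changed by -0.77 (adjusted p 0.038) with overlapping libraries, and this call was lost without sham replicate 1, 2 or 3 or stroke replicate 1, 2 or 3 (adjusted p up to 0.124). Cldn5, the main claudin of brain endothelium, was 2745 to 5725 CPM in sham and 2829.9 to 4308 CPM in stroke and was not called (-0.20, adjusted p 0.626). Cdh5, VE-cadherin, was 236 to 513 CPM in sham and 206 to 447 CPM in stroke (-0.06, adjusted p 0.909). Both were singled out after their values were seen. Without sham replicate 2 or 3 or stroke replicate 2 or 3, 1 junction gene was called. Among 20 pan-endothelial genes, Flt1, the VEGF receptor 1, had 5007, 4910.3, 5776 and 5393 CPM in the 4 sham libraries and 1959, 2452, 2162 and 2099 CPM in the 4 stroke libraries (log2 fold change -1.28 ± 0.21, adjusted p 0.00187). Ptprb, the phosphatase VE-PTP, changed by -0.93 (adjusted p 0.0121), and the surface antigen gene Ly6a rose by 1.03 (adjusted p 0.0143). Flt1 and Ptprb held without any single library, and the Ly6a call was lost without sham replicate 3 or 4 (adjusted p up to 0.0556). The other 17, among them Pecam1, Kdr, Tek and Erg, were not called, where 13.3% of all genes were.

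The calls were all lower among capillary genes, all higher among venous genes and in both directions among arterial genes. Of 15 tested capillary genes 7 fell and 0 rose (median -1.05), and of 16 venous genes 6 rose and 0 fell (0.32). Of 16 arterial genes 3 rose and 3 fell (-0.43). Over all genes tested 6.89% rose and 6.45% fell. The lists share members with others, so these counts are not separate results. Slco1c1, Tfrc, Mfsd2a, Slc16a1, Slc22a8 and Slc7a5 are in both the capillary and the barrier transport list. Of the venous calls, Ackr1 and Selp are also adhesion calls. Lrg1 and Ch25h are also STAT3 and acute-phase calls, and Vwf is a coagulation call. The summed capillary list was 16363 to 20791 CPM in sham and 7836 to 12427 CPM in stroke and the venous list 2303 to 2922 CPM in sham and 4226 to 5051 CPM in stroke, each without overlap. For the capillary list, stroke replicates 1 and 2, of low mitochondrial share, stood at 7836 and 7939 CPM. Stroke replicates 3 and 4 stood at 12427 and 11956 CPM. Sham replicate 1, also of low share, was the lowest sham library for the capillary list and for barrier transport (15935 CPM). With the split as a term in the fit, 8 capillary genes were called lower. The part of the split in these sums was not tested. The arterial list was 2276 to 5574 CPM in sham and 5552 to 6147 CPM in stroke, with sham replicate 1 at the level of the stroke libraries. Its sum and its median differed in direction, and the sum was carried by Mgp (835 CPM in sham and 1826 CPM in stroke, adjusted p 0.113) and Tm4sf1 (719 CPM in sham and 1791 CPM in stroke). Mgp was singled out after its values were seen. A change within cells cannot be told apart from another mix of vessel segments in these sums. The capillary genes Spock2 (-1.69, adjusted p 0.00286), Hmcn1 (-1.43, adjusted p 0.00551) and Cxcl12 (-1.28, adjusted p 0.00509), the last a chemokine that retains leukocytes, fell. Car4 and Ivns1abp were called lower too. The arterial genes Gja4, a connexin (2.18, adjusted p 0.00911), Edn1, endothelin 1 (1.28, adjusted p 0.0104), and Tm4sf1 (1.30, adjusted p 0.00845) rose. Efnb2, ephrin B2, fell (-1.32, adjusted p 0.0125). Alpl, alkaline phosphatase, changed by -1.38 (adjusted p 0.0211), a call lost without sham replicate 1 or 2 or stroke replicate 3 (adjusted p up to 0.104), and the Notch ligand gene Jag1 by -1.33 (adjusted p 0.0392), a call lost without sham replicate 1, 2, 3 or 4 or stroke replicate 3 or 4 (adjusted p up to 0.179). The venous count was 2 to 3 without sham replicate 2, 3 or 4 or stroke replicate 1. The arterial count of lower genes was 1 without sham replicate 1 or 2 or stroke replicate 3.

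**Figure D2:**
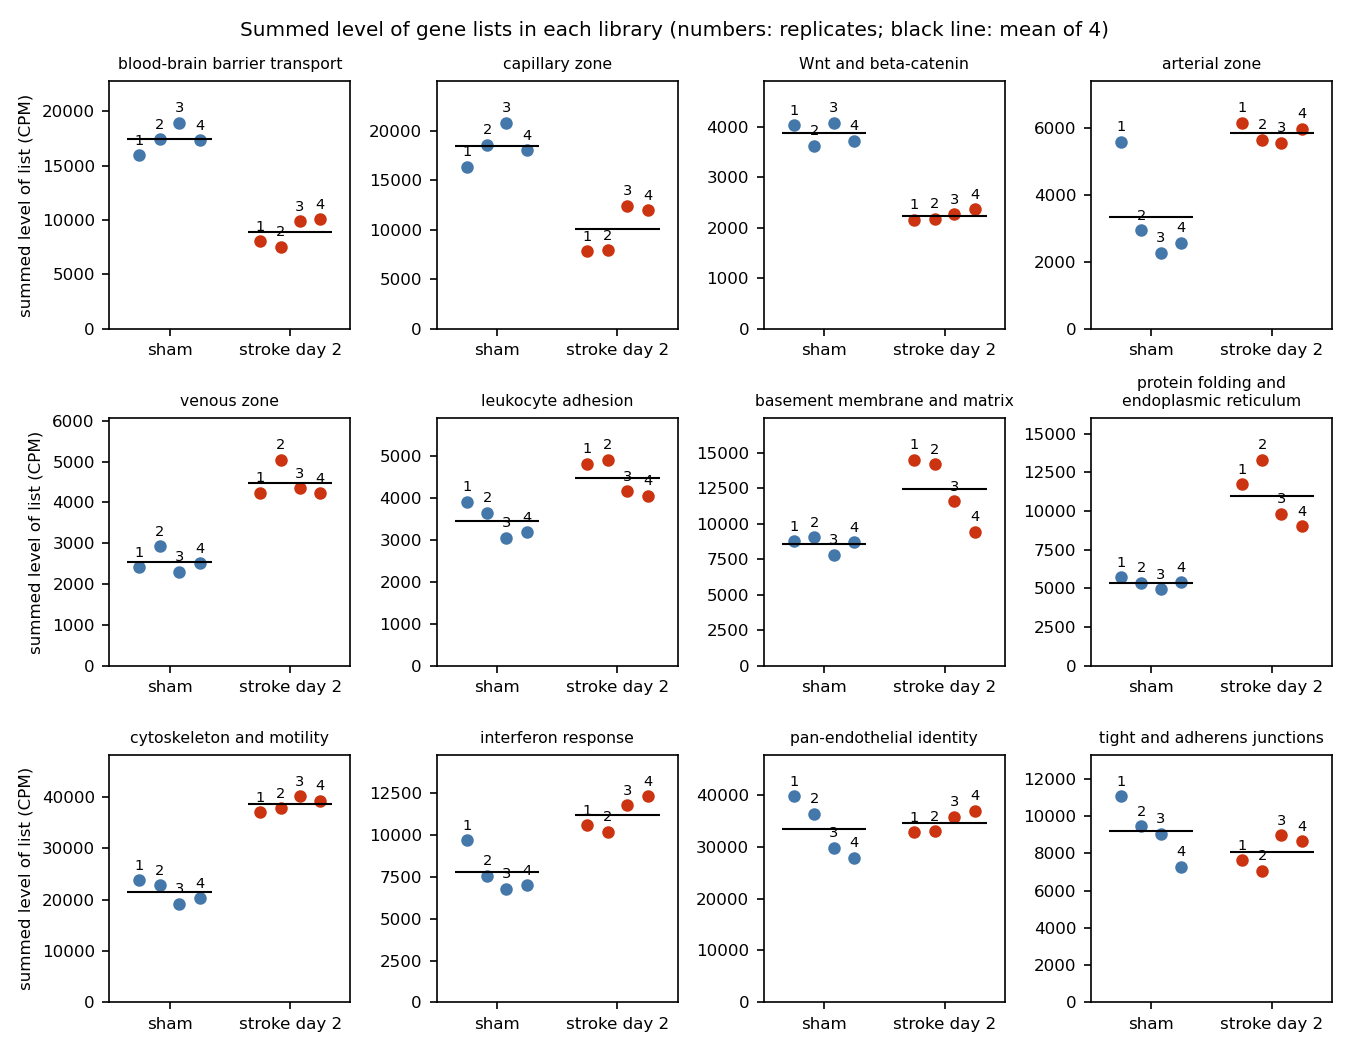
Summed level of 12 gene lists (vertical axes, CPM, from 0) in each of the 4 sham and 4 stroke day 2 libraries, marked by replicate number, with the group mean as a line. Barrier transport, capillary and Wnt lists are lower in every stroke library than in any sham library, while the pan-endothelial and junction lists overlap.

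Venous genes and genes of leukocyte recruitment that were called higher included several that venules are known to express. Lrg1, which encodes a secreted glycoprotein of the acute phase (17:56119678-56121946), had 82.9, 109.8, 91.4 and 53.6 CPM in the 4 sham libraries and 848, 1132, 781 and 665 CPM in the 4 stroke libraries (log2 fold change 3.29 ± 0.50, adjusted p 0.00133), with the lowest stroke library far above the highest sham library. Ch25h, which encodes cholesterol 25-hydroxylase, was 0 to 127 CPM in sham and 257 to 376 CPM in stroke (2.11 ± 0.49, adjusted p 0.0119). Ackr1, the chemokine-binding receptor of venules (1:173331886-173333503), had 54.4, 122, 0 and 0 CPM in the 4 sham libraries and 469.8, 345, 436 and 342 CPM in the 4 stroke libraries (log2 fold change 2.83 ± 0.70, adjusted p 0.0161), with 2 sham libraries at 0. Its call was lost without sham replicate 3 or 4 (adjusted p up to 0.0645). Selp, P-selectin (1:164115264-164150026), had 0, 0, 0 and 0 CPM in the 4 sham libraries and 76.1, 62.7, 45.5 and 22.5 CPM in the 4 stroke libraries and was thus at least 13.5-fold higher (adjusted p 0.0203). Its call was lost without sham replicate 1, 2, 3 or 4 or stroke replicate 1 (adjusted p up to 0.0648). Mcam, an adhesion molecule gene, changed by 2.43 (adjusted p 0.0377), and this call was lost without sham replicate 2, 3 or 4 or stroke replicate 4 (adjusted p up to 0.132), while without stroke replicate 1 or 2 the gene had too few counts to be tested. Vwf, von Willebrand factor, changed by 1.08 (adjusted p 0.0329), a call lost without sham replicate 2, 3 or 4 or stroke replicate 1 or 3 (adjusted p up to 0.118). Nr2f2, the venous transcription factor COUP-TFII, was called higher as well.

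Of 13 tested adhesion genes, 3 (Ackr1, Mcam and Selp) were called higher and 0 lower, with a median of 0.41. Over all genes tested 6.89% were called higher and 6.45% lower. Without sham replicate 3 or 4 the count was 0, and without sham replicate 2 or stroke replicate 1 it was 1. It was also 1 with DESeq2 and with only the sham and stroke day 2 libraries in the fit. Icam1 and Vcam1 were tested and not called. Icam1 was 18.3 to 84.4 CPM in sham and 68.5 to 136 CPM in stroke (0.70, adjusted p 0.263) and Vcam1 was 92.9 to 163 CPM in sham and 72.3 to 130.1 CPM in stroke (-0.20, adjusted p 0.76). Sele, E-selectin, had too few counts to be tested, with 0, 0, 0 and 0 CPM in the 4 sham libraries and 30.4, 31.4, 21.4 and 38.5 CPM in the 4 stroke libraries, at least 8.67-fold higher by the floor of 3 counts. These 3 genes were singled out after their values were seen. Of the 10 tested chemokine and cytokine response genes, Tnfrsf1a, the TNF receptor 1, rose (1.43, adjusted p 0.00448) and Cxcl12 fell. Il4ra, the shared receptor chain for IL-4 and IL-13, changed by 1.27 (adjusted p 0.0185), a call lost without sham replicate 2, 3 or 4 or stroke replicate 1 (adjusted p up to 0.0565). None of 7 tested NF-kB feedback genes was called, against 13.3% of all genes tested. Nfkbia, the inhibitor of NF-kB, was 1426 to 2195 CPM in sham and 1255 to 1924 CPM in stroke (-0.30, adjusted p 0.43) and Ier3 was 457 to 1119 CPM in sham and 426 to 602 CPM in stroke (-0.38, adjusted p 0.385).

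Of 16 tested genes of the STAT3 and acute-phase list, 5 rose and 0 fell, with a median of 0.53, against 6.89% and 6.45% of all genes tested. They were Timp1, Lrg1, Ch25h, Ctla2a and Il4ra. Socs3, the feedback inhibitor of this pathway, was 18.3 to 67.4 CPM in sham and 58.9 to 112 CPM in stroke and not called (0.86, adjusted p 0.177), and Stat3 was 73.1 to 135 CPM in sham and 132 to 183 CPM in stroke (0.36, adjusted p 0.289). Both were singled out after their values were seen.

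The share of interferon response genes called higher was not far from that of all genes tested. Of 33 tested genes, 3 rose (Ifitm3, Ifitm2 and Bst2) and 0 fell, against 6.89% and 6.45% of all genes. The median was 0.29. The summed list was 6790 to 9700 CPM in sham and 10214 to 12317 CPM in stroke, without overlap. Ifitm3, which encodes an antiviral membrane protein, had 1630.1, 1153, 722 and 1019 CPM in the 4 sham libraries and 3121, 3233, 3356 and 3399 CPM in the 4 stroke libraries (log2 fold change 1.53 ± 0.25, adjusted p 0.00187), with separate groups. Bst2, tetherin, changed by 1.10 (adjusted p 0.00576), and Ifitm2 by 1.04 (adjusted p 0.0195), a call lost without sham replicate 3 or 4 (adjusted p up to 0.0786). Isg15, Irf7 and the Ifit genes were not called. Without stroke replicate 2, 5 genes of the list were called, and among the 5 libraries with the higher mitochondrial share 8 were, all higher. In the list of MHC class I presentation, Psme2 was called higher (0.69, adjusted p 0.0402) and H2-T23 lower (-0.90, adjusted p 0.0191) of 15 genes, close to the shares over all genes tested (6.89% and 6.45%). The Psme2 call was lost without sham replicate 1, 3 or 4 or stroke replicate 1, 3 or 4 (adjusted p up to 0.118) and the H2-T23 call was lost without sham replicate 3 or stroke replicate 2, 3 or 4 (adjusted p up to 0.0705).

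Genes of the basement membrane, the sheet of matrix beneath the endothelium, were called in both directions, mostly higher. Of 20 tested genes, 9 rose and 3 fell, against 6.89% and 6.45% of all genes tested, and the median was 0.78. Sparc, a secreted collagen-binding glycoprotein gene (11:55394159-55420080), had 2467, 2440.4, 1828 and 2327 CPM in the 4 sham libraries and 7294, 7967, 6253 and 4379.9 CPM in the 4 stroke libraries (log2 fold change 1.51 ± 0.23, adjusted p 0.00133). It was among the most abundant RNAs, and the lowest stroke library, replicate 4, was well above sham. Serpinh1, which encodes the collagen chaperone HSP47, rose by 1.57 (adjusted p 0.00548). Col4a1 was 161 to 275 CPM in sham and 249 to 947 CPM in stroke (1.61, adjusted p 0.0106) and Col4a2 was 146 to 207 CPM in sham and 218 to 1049.8 CPM in stroke (1.67, adjusted p 0.0125). Nid1, P4hb and Plod3, for nidogen and for enzymes of collagen maturation, were called higher beside Timp1 and Adamts9. Sparcl1, the relative of Sparc, went the other way, from 1949 to 2998 CPM in sham and 934 to 1565 CPM in stroke (-1.08 ± 0.23, adjusted p 0.00868), and Timp3 and Lamb2 were also called lower. Without sham replicate 3, 5 genes of the list were called higher.

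Calls among cytoskeletal genes were all higher, with 14 of 31 tested genes called higher, 0 lower and a median of 0.66, where 6.89% of all genes tested were called higher. Vim, vimentin, had 1148, 840.2, 612 and 525 CPM in the 4 sham libraries and 3001, 2132, 2534 and 2051 CPM in the 4 stroke libraries (log2 fold change 1.62 ± 0.26, adjusted p 0.00173). Anxa2, annexin A2, which binds plasminogen and its activator at the cell surface, had 547, 418, 429.5 and 547 CPM in the 4 sham libraries and 1331, 1389.9, 1228 and 1482 CPM in the 4 stroke libraries (log2 fold change 1.48 ± 0.20, adjusted p 0.000569). In both genes the groups were separate. Tubb5, Tuba1a, Tuba1b and Tuba1c for tubulins, Actb and Pfn1 for actin and profilin, Tmsb4x, S100a6 and S100a10 were also called higher, S100a6 being held by cells coded Gran at 5603 CPM against 273 CPM in endothelium. Without sham replicate 2, 3 or 4 the count was 8. In the coagulation and fibrinolysis list, Anxa2, S100a10, Ptgs2, Tfpi and Vwf were called higher and Cd59a lower, of 11 tested (median 1.06), against 6.89% higher and 6.45% lower over all genes. Ptgs2, cyclooxygenase 2, had 0, 8.44, 9.14 and 21.4 CPM in the 4 sham libraries and 112, 108, 40.1 and 69.1 CPM in the 4 stroke libraries (log2 fold change 3.59 ± 0.80, adjusted p 0.0101). Cells coded MdC held Ptgs2 at 487 CPM against 52.4 CPM in endothelium. Tfpi, the tissue factor pathway inhibitor, rose by 1.76 (adjusted p 0.00409), and Cd59a, which encodes an inhibitor of complement lysis, changed by -1.03 (adjusted p 0.00868). Without sham replicate 2, 3 or 4 or stroke replicate 3, 3 genes of that list were called higher.

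**Figure D3:**
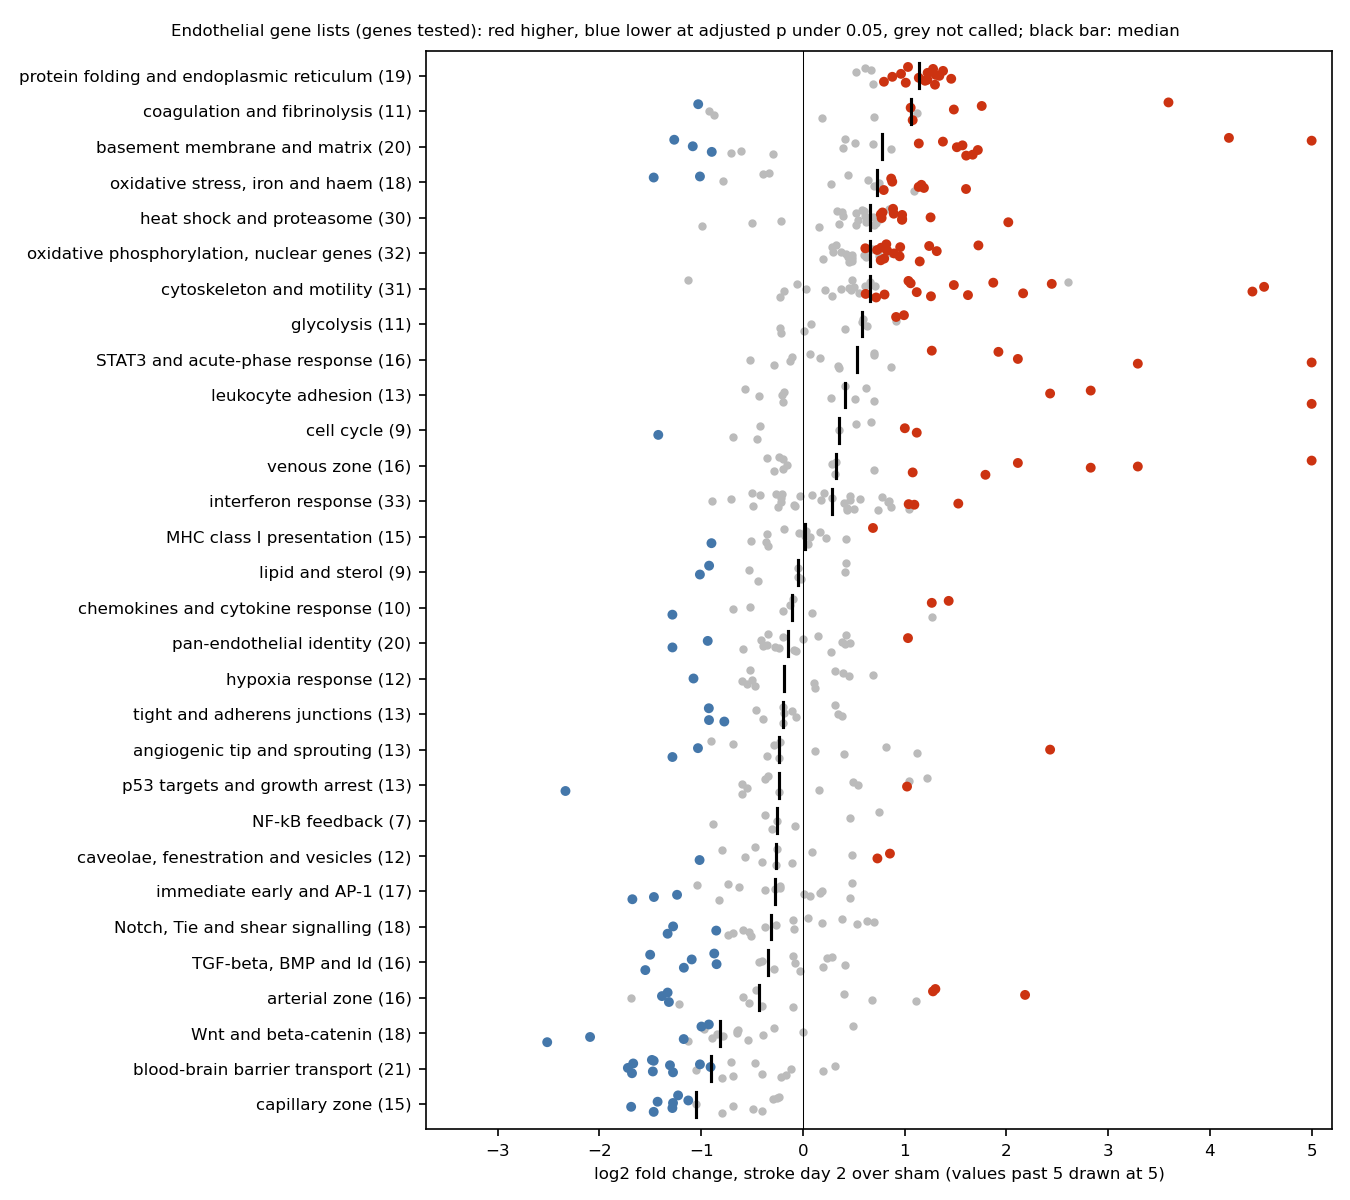
Log2 fold change (horizontal axis, stroke day 2 over sham) of every tested gene in 30 endothelial lists, with genes called higher in red, called lower in blue, others in grey, the median as a bar and values past 5 drawn at 5. Protein folding genes (median 1.14) lie at the top and capillary genes (median -1.05) at the bottom.

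Genes for protein folding in the endoplasmic reticulum were called higher more than those of any other list here, by share of tested genes. Of 19 tested genes, 15 rose and 0 fell, against 6.89% and 6.45% of all genes tested, and the median of 1.14 compares with 0.0048 over all genes tested. The lists were chosen with earlier results of these data known, so this order and these shares only describe them. The summed list was 4935 to 5717 CPM in sham and 9014 to 13338 CPM in stroke. Pdia6, a disulfide isomerase gene, had 163, 135, 174 and 172 CPM in the 4 sham libraries and 512, 547, 383 and 316 CPM in the 4 stroke libraries (log2 fold change 1.46 ± 0.21, adjusted p 0.00123). Hspa5, the central chaperone BiP (2:34772090-34776529), had 588, 486, 384 and 654 CPM in the 4 sham libraries and 1366, 1892, 971 and 973 CPM in the 4 stroke libraries (log2 fold change 1.30 ± 0.30, adjusted p 0.0126). In both genes every stroke library was above every sham library, and stroke replicate 2 was the highest. Xbp1, a transcription factor of the unfolded protein response, rose by 1.23 (adjusted p 0.00404), Pdia3 by 1.20 (adjusted p 0.00409), Manf by 1.34 (adjusted p 0.00312) and the translocon subunit gene Sec61b by 1.38 (adjusted p 0.00371). Without sham replicate 3, 9 genes were called higher. Hsp90b1, Atf4, Sec61g and Spcs1 were not called.

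The promoters of these folding genes are shown because a known regulatory element, the endoplasmic reticulum stress element, recurs in them. RefSeq promoters (GRCm38.p6, 250 bases before to 50 after the start) were searched on both strands for the letters CCAAT, then any 9 bases, then CCACG. It was present in 39 of 32851 promoters (0.119%) and in those of 6 of the 19 matched genes of the list, namely Calr, Canx, Creld2, Hsp90b1, Hspa5 and Pdia6. A second element searched the same way, the core of the antioxidant response element (TGAC, then any 3 bases, then GC), was in 12.4% of all promoters, in 17.3% of those of tested genes, in 61 of 330 genes called higher and in 60 of 306 called lower, and in 5 of 17 matched genes of the oxidative stress list. Among genes tested here with a promoter entry, 9 of 4514 held the stress element. That was 5 of the 330 genes called higher and 0 of the 306 called lower. All 5 were members of the folding list, so this split repeats the calls of that list and is no separate support. A match is a description and not a site or a cause, and the other 13 matched genes lacked these letters in this window. The 5 promoters of genes called higher follow, with the fixed letters of the element in capitals. Hspa5 lies at chr2:34771840-34772139, plus strand, Calr at chr8:84846882-84847181, minus strand, Canx at chr11:50325624-50325923, minus strand, Creld2 at chr15:88819396-88819695, plus strand and Pdia6 at chr12:17266339-17266638, plus strand.
Hspa5: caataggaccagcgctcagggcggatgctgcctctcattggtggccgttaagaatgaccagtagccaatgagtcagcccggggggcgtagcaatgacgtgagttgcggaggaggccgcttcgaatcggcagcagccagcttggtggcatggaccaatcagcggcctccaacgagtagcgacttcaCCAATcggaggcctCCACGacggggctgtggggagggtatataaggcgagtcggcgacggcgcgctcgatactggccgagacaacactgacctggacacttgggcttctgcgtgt
Calr: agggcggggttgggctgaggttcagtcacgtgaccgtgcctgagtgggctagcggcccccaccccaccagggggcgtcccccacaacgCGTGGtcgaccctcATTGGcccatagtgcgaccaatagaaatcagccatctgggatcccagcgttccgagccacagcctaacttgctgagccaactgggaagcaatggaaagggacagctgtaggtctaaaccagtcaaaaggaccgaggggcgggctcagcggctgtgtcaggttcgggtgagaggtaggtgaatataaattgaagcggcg
Canx: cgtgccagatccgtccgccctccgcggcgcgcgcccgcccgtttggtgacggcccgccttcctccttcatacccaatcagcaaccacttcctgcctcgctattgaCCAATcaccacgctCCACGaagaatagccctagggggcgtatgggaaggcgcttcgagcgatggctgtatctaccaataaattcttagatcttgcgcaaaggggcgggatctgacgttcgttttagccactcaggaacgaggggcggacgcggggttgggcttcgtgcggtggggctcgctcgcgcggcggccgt
Creld2: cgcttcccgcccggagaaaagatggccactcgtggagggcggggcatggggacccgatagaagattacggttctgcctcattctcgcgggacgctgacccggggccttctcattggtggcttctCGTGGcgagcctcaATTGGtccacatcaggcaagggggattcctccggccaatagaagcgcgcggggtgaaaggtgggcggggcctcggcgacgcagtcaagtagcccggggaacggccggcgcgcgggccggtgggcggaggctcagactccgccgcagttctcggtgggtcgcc
Pdia6: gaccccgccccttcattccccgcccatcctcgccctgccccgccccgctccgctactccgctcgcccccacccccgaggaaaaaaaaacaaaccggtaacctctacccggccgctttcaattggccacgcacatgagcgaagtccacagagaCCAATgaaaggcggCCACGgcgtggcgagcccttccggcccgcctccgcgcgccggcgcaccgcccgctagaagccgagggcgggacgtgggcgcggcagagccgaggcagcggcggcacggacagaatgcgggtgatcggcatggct
The leftmost printed base of the element lay 65 bases before the start in Hspa5, 145 in Canx and 98 in Pdia6. It lay 162 bases before the start in Calr and 126 in Creld2. In Calr and Creld2 the element is on the minus strand of the printed sequence, so that base is its end. Calr, calreticulin, was 475 to 622 CPM in sham and 596 to 1598 CPM in stroke (1.01, adjusted p 0.0254), Canx, calnexin, was 474 to 585 CPM in sham and 714 to 1202 CPM in stroke (0.80, adjusted p 0.0241), and Creld2 was 45.7 to 80.2 CPM in sham and 135 to 261 CPM in stroke (1.30, adjusted p 0.0141). Hsp90b1, which carries the element at 2 places, was 1051 to 1254 CPM in sham and 954 to 2735 CPM in stroke and was not called (0.69, adjusted p 0.145), with stroke replicate 3 within the sham range and stroke replicate 4 below it.

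Genes of energy metabolism and protein turnover were also called, all higher, where 6.89% of all genes tested were called higher. Of 32 nuclear genes of oxidative phosphorylation, 14 rose and 0 fell, and all 32 had a fitted change above 0, against 50.3% of all genes tested (median 0.66). Atp5g1, a subunit of ATP synthase, rose by 1.73 (adjusted p 0.00133), Cox5a by 1.32 (adjusted p 0.0085), Atp5e by 1.24 (adjusted p 0.0102), Ndufa4 by 1.15 (adjusted p 0.00985) and Atp5a1 by 0.77 (adjusted p 0.0119). The count was 7 to 8 without sham replicate 2, 3 or 4 or stroke replicate 3, and 9 with library size alone. It was 7 in cells with at least 500 counts and 8 without a filter on low counts. Of 30 heat shock and proteasome genes, 10 rose and 0 fell (median 0.66). Hspe1, the mitochondrial chaperonin HSP10, was 64.3 to 88.7 CPM in sham and 257 to 394 CPM in stroke (2.02 ± 0.28, adjusted p 0.000835), and the other 9 were proteasome subunits such as Psma2 (0.98, adjusted p 0.00845) and Psmb4 (0.89, adjusted p 0.0102). Cytosolic heat shock genes such as Hspa1a, Hspa8 and Hsp90aa1 were not called. The heat shock and proteasome count was 6, 3 and 5 without sham replicates 2, 3 and 4, and 6 in cells with at least 500 counts. Ldha, lactate dehydrogenase, rose by 0.99 (adjusted p 0.00886), and Pkm changed by 0.92 (adjusted p 0.0197), a call lost without sham replicate 2, 3 or 4 (adjusted p up to 0.0739), while 9 other glycolysis genes were not called.

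Calls in the oxidative stress, iron and haem list were mostly higher. In that list of 18 tested genes 7 were called higher and 2 lower (median 0.73), against 6.89% and 6.45% of all genes tested, and the count of 2 lower is not far from that share. Txnrd1, thioredoxin reductase, was 32.2 to 84.4 CPM in sham and 81.9 to 281 CPM in stroke (1.60, adjusted p 0.0125), with stroke replicate 4 within the sham range. Txn1, thioredoxin, had 417, 359, 283 and 418 CPM in the 4 sham libraries and 844, 791, 931 and 818 CPM in the 4 stroke libraries (log2 fold change 1.19 ± 0.22, adjusted p 0.00371), and Prdx1, a peroxiredoxin, rose by 1.14 (adjusted p 0.00404). Ftl1, the ferritin light chain, changed by 0.87 (adjusted p 0.0158), a call lost without sham replicate 3 (adjusted p up to 0.0578). Gclm, Gpx1 and Prdx6 were called higher, and Tfrc and the iron exporter gene Slc40a1 lower. Cat, Gpx4, Sod1 and Sod2 were among those not called. Without sham replicate 3, 3 genes of the list were called higher and 0 lower, and 1 was called lower without sham replicate 2 or 4 or stroke replicate 1, 2 or 4.

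The calls among TGF-beta, shear and immediate early genes were all lower, and most of the named ones lost their call in some fits with 1 library left out. Of 16 tested TGF-beta and BMP genes, 6 were called lower, against 6.45% of all genes tested, and 0 higher (median -0.34), and the count was 1 to 3 without sham replicate 2, 3 or 4 or stroke replicate 1, 3 or 4. Tgfb2, a TGF-beta ligand, changed by -1.55 (adjusted p 0.0126), a call lost without sham replicate 4 (adjusted p up to 0.0502). Ctgf, a matricellular target of YAP, changed by -1.50 (adjusted p 0.0294), a call lost without sham replicate 2, 3 or 4 or stroke replicate 1, 3 or 4 (adjusted p up to 0.129), and had 0.64 among the 3 libraries with the lower mitochondrial share. Bmpr2, Ltbp4, Smad7 and Tgfbr3 were the other 4. Of 18 Notch, Tie and shear genes, 3 (Hes1, Jag1 and Klf4) were called lower and 0 higher, with 0 or 1 without sham replicate 2, 3 or 4 or stroke replicate 1, 3 or 4. Klf4, a flow-induced transcription factor, was 595 to 1243 CPM in sham and 230.1 to 397 CPM in stroke (-1.27, adjusted p 0.0274), a call lost without sham replicate 2, 3 or 4 or stroke replicate 1, 3 or 4 (adjusted p up to 0.124). Hes1, a Notch target, changed by -0.85 (adjusted p 0.0306), a call lost without sham replicate 2, 3 or 4 or stroke replicate 1, 2 or 4 (adjusted p up to 0.113). Of 17 immediate early genes, Jun (-1.46, adjusted p 0.0179), Jund (-1.24, adjusted p 0.0151) and Fosb (-1.68, adjusted p 0.0266) were called lower and 0 higher. The Jun call was lost without sham replicate 3 or 4 or stroke replicate 1 or 3 (adjusted p up to 0.0937), the Jund call lost without sham replicate 2 or 3 or stroke replicate 4 (adjusted p up to 0.0684) and the Fosb call lost without sham replicate 2 or 3 or stroke replicate 3 or 4 (adjusted p up to 0.116). The count for this list was 0 or 1 without sham replicate 2 or 3 or stroke replicate 3 or 4. Actinomycin D was present during digestion, and how far it blocked transcription was not tested.

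Calls among genes of sprouting, division and p53 went in both directions, and 1 hypoxia gene was called, against 6.89% of all genes called higher and 6.45% lower. Of 13 tested angiogenic genes, Mcam was called higher and Flt1 and Nrp1 lower (median -0.24), while the summed list was 7401 to 8865 CPM in sham and 4075 to 4389.6 CPM in stroke. Most of that difference in the sum was Flt1, at 5272 CPM in sham and 2168 CPM in stroke (group means). Nrp1, a VEGF and semaphorin co-receptor, changed by -1.03 (adjusted p 0.0236), a call lost without sham replicate 3 or 4 or stroke replicate 3 or 4 (adjusted p up to 0.092). Apln, the tip cell ligand apelin, had too few counts to be tested and was singled out after its values were seen, with 0, 0, 0 and 0 CPM in the 4 sham libraries and 53.3, 38.3, 0 and 132 CPM in the 4 stroke libraries. Of 28 cell cycle genes 9 could be tested, and the summed list was 1316 to 1507 CPM in sham and 1523 to 2018 CPM in stroke. Mki67, a marker of dividing cells, was at 0 CPM in all 4 stroke libraries and in 3 sham libraries, with 4.22 CPM in sham replicate 2. Tubb5 rose (1.12, adjusted p 0.00409), Stmn1 fell (-1.42, adjusted p 0.0104) and Ccnd1, cyclin D1, changed by 1.00 (adjusted p 0.0431), a call lost without sham replicate 2, 3 or 4 or stroke replicate 1, 2 or 4 (adjusted p up to 0.125). Of 12 hypoxia genes Ndrg1 was called lower (-1.08, adjusted p 0.0134), a call lost without sham replicate 2 or 3 (adjusted p up to 0.0623), and 0 were higher. Epas1, which encodes HIF-2 alpha, was 587 to 985 CPM in sham and 408 to 603 CPM in stroke (-0.52, adjusted p 0.14), and it was called lower with the split by mitochondrial share as a term (-0.63, adjusted p 0.0288). Of 13 p53 and growth arrest genes, Trp53inp1 fell and Bax, a pro-apoptotic gene, changed by 1.02 (adjusted p 0.0172), a call lost without sham replicate 3 (adjusted p up to 0.062). Cdkn1a was 793 to 2407 CPM in sham and 696 to 1370 CPM in stroke and was not called (-0.60, adjusted p 0.246).

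Calls among vesicle genes went in both directions, and the 2 among lipid genes were lower. Of 12 vesicle genes 2 were called higher and 1 lower, and of 9 lipid genes 0 higher and 2 lower, where 6.89% of all genes tested were called higher and 6.45% lower, and counts this small say nothing particular of either list. Cavin2, which encodes a coat protein of caveolae, had 1125, 1056, 987 and 965 CPM in the 4 sham libraries and 508, 498, 452 and 588 CPM in the 4 stroke libraries (log2 fold change -1.01 ± 0.19, adjusted p 0.00404), with separate groups. Cavin3 changed by 0.73 (adjusted p 0.0323), a call lost without sham replicate 2, 3 or 4 or stroke replicate 1, 2 or 4 (adjusted p up to 0.101), and Ehd4 by 0.86 (adjusted p 0.0242), a call lost without sham replicate 2, 3 or 4 or stroke replicate 1 or 2 (adjusted p up to 0.0569). Cav1 and the fenestration gene Plvap were not called, among 12 tested. Pltp, the phospholipid transfer protein, changed by -0.92 (adjusted p 0.0229), a call lost without sham replicate 2 or 3 or stroke replicate 1 or 2 (adjusted p up to 0.0694). Apoe changed by -1.01 (adjusted p 0.0466), a call lost without sham replicate 1, 2, 3 or 4 or stroke replicate 1, 2 or 4 (adjusted p up to 0.162), and cells of these libraries coded BAM held it at 43434 CPM against 488 CPM in endothelium. The summed lipid list was 3848 to 4634 CPM in sham and 1902 to 2957 CPM in stroke, while its median was -0.05. Most of the difference in the sum was Pltp, at 2641 CPM in sham and 1395 CPM in stroke, and Apoe, at 832 CPM in sham and 411 CPM in stroke (group means). The other 7 tested lipid and sterol genes were not called.

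At day 14 after stroke, edgeR called 0 of 5833 genes (0%) against the same sham libraries, with 356 at an unadjusted p under 0.05, and DESeq2 called 10. Both times share their sham libraries, so their values are given only side by side. Timp1 was 5.38, 0, 0 and 0 CPM in the 4 day 14 libraries, and Lrg1 was 104, 40.1, 204 and 0 CPM, so that 1 library had Timp1 counts and the Lrg1 range overlapped with sham. Abcb1a was 1648 to 2542 CPM and Lef1 453 to 640.3 CPM at day 14. Igf1r was 611 to 1196 CPM, between both day 2 groups except that its highest library reached the sham range, and Axin2 was 65.9 to 120.2 CPM. Other named genes stood nearer to stroke day 2 at day 14, and none of them was called. Tfpi was 60.1 to 65.9 CPM at day 14, where it was 9.14 to 31.1 CPM in sham and 64.2 to 104 CPM in stroke at day 2. Cd59a was 358 to 568 CPM and Ptgs2 21.5 to 154 CPM at day 14, against sham ranges of 687 to 988 CPM and 0 to 21.4 CPM. These 3 genes were picked for day 14 after their values were seen. The difference between the times was not tested.

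The aged brains had no library in common with the young ones. With 2 sham and 3 stroke libraries, in a fit that shared its estimate of the spread with the young day 2 libraries, edgeR called 40 of 6604 genes (0.606%), 28 higher (0.424%) and 12 lower (0.182%). Of the 778 genes called in young endothelium, 694 (89.2%) had the same sign in aged endothelium, against 65.9% of the 5720 genes tested at both ages. The share was 95.3% (383 of 402) for genes higher in young and 82.7% (311 of 376) for those lower. Of the young calls, 32 were also called the same way in aged, 24 higher and 8 lower. Pdlim1 had 4.14 and 10.5 CPM in the 2 aged sham libraries and 155, 263 and 116 CPM in the 3 aged stroke libraries (adjusted p 0.00827). Sparc had 1023 and 1317 CPM in the 2 aged sham libraries and 4355, 4238 and 3589.5 CPM in the 3 aged stroke libraries (1.80, adjusted p 0.0129). Ecscr had 232 and 179 CPM in the 2 aged sham libraries and 1075, 926 and 732 CPM in the 3 aged stroke libraries (2.13, adjusted p 0.0129). In these 3 genes every aged stroke library was above both aged sham libraries.

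Further genes called in both ages were Esd (2.27, adjusted p 0.00766 in aged), Fkbp1a (2.01, adjusted p 0.00827), Tubb6 (3.40, adjusted p 0.0104), Il4ra (2.80, adjusted p 0.00766) and Igfbp4 (3.49, adjusted p 0.0429), all higher. Timp1 had 4.14 and 10.5 CPM in the 2 aged sham libraries and 95.7, 102 and 43.5 CPM in the 3 aged stroke libraries (adjusted p 0.0326), and Upp1 had 12.4 and 0 CPM in the 2 aged sham libraries and 196, 127 and 131 CPM in the 3 aged stroke libraries (adjusted p 0.00827). Sham counts of Pdlim1, Timp1 and Upp1 were too few in aged for a fold. Ctla2a had 1068 and 1190.1 CPM in the 2 aged sham libraries and 13014, 6803 and 4068 CPM in the 3 aged stroke libraries (2.82, adjusted p 0.0195). Sparcl1 (-2.01, adjusted p 0.00827), Cxcl12 (-1.58, adjusted p 0.0288) and Pltp (-1.62, adjusted p 0.027) were lower. The list medians in aged were -0.89 for barrier transport, -1.48 for capillary, -0.61 for Wnt, 1.17 for basement membrane and 0.64 for protein folding genes, against 0.015 over all genes. Among the 30 endothelial lists the median differed in sign from young for the arterial list (0.13), the NF-kB list (0.37) and the MHC class I list (-0.04). No gene of the Wnt or protein folding lists was called in aged, as in most of the 30 endothelial lists. As 0.606% of all genes were called in aged, counts of 0 say nothing particular of either list. The interaction of age and stroke called 0 genes with edgeR (356 at an unadjusted p under 0.05) and 0 with DESeq2, and 124 without a filter on low counts. The aged count was 5 and 0 without the male or the female sham library, 12 and 15 without the first male or first female stroke library, 26 without the second female stroke library, 108 with DESeq2 and 135 without a filter. The deposited tables held 27514 genes for aged libraries and 19704 for young ones, and only genes in both entered the fit. Age, sex mix, number of libraries and gene table differ together between the 2 designs and cannot be told apart.

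**Figure D4:**
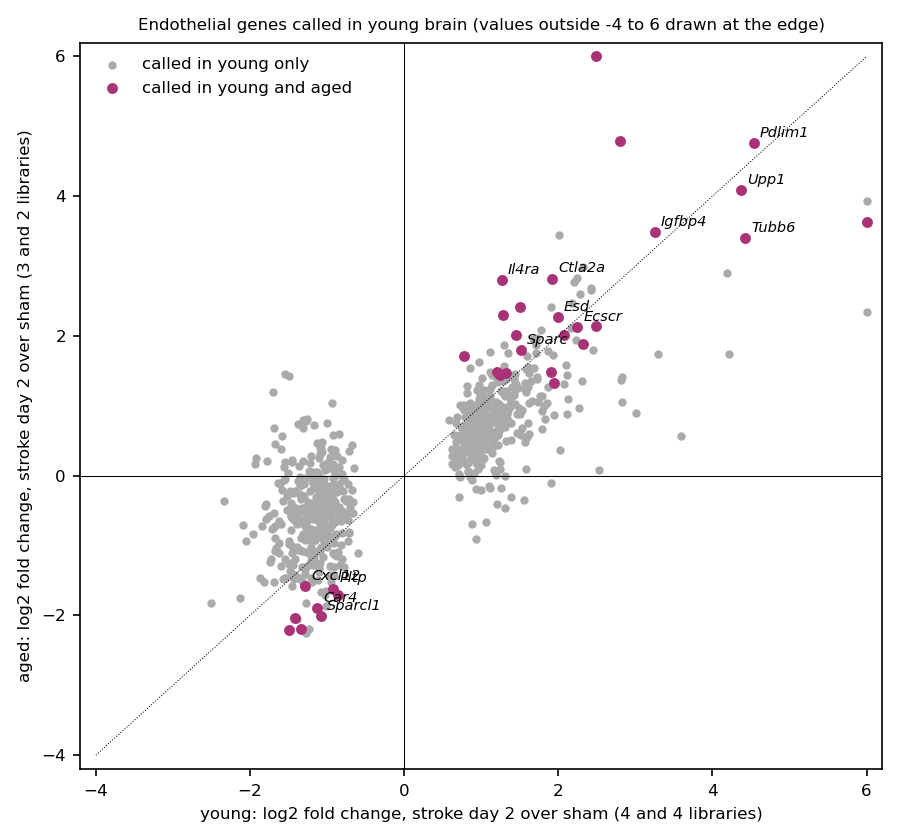
Log2 fold change at day 2 over sham in aged brain endothelium (vertical axis, 3 and 2 libraries) against that in young (horizontal axis, 4 and 4 libraries) for the 778 genes called in young, with the 32 also called in aged in purple. For 694 of the 778 genes both changes have the same sign.

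Microglia of the same 8 libraries served to ask which endothelial changes differed from those of another brain cell. The stroke change differed between both cell types in 636 of 9099 genes (6.99%, 317 or 3.48% higher and 319 or 3.51% lower in endothelium relative to microglia, edgeR interaction). Of the 778 endothelial calls, 105 (13.5%) differed, and 80 of these had a mean of at least 20 CPM in both types. Stroke replicate 3 held 58 microglia, against 618 to 1324 in the other 3 stroke libraries. Sparc was 2266 CPM in sham and 6473 CPM in stroke in endothelium (group means) and 3107 CPM in sham and 1676 CPM in stroke in microglia (difference of changes 2.59, adjusted p 0.00221). Ecscr was 175 CPM in sham and 865 CPM in stroke in endothelium and 283 CPM in sham and 173 CPM in stroke in microglia (difference 2.80, adjusted p 2.32e-06). Xbp1 was 180.5 CPM in sham and 431 CPM in stroke against 127 CPM in sham and 123 CPM in stroke (difference 1.36, adjusted p 0.00249), and Tnfrsf1a 53.9 CPM in sham and 151 CPM in stroke against 79.7 CPM in sham and 84.6 CPM in stroke (difference 1.41, adjusted p 0.00663). In microglia the stroke mean was below the sham mean for Sparc, Ecscr and Xbp1.

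Other genes had the larger change in microglia. Ifitm3 was 7.26 CPM in sham and 535 CPM in stroke in microglia, a larger relative change than in endothelium (difference -4.53, adjusted p 3.62e-06). Vim was 2.02 CPM in sham and 296 CPM in stroke in microglia (difference -3.66, adjusted p 0.0188). Stmn1, which encodes a microtubule-destabilising protein active in dividing cells, fell in endothelium and was 19.9 CPM in sham and 235 CPM in stroke in microglia (difference -5.15, adjusted p 3.54e-10). Pkm and Ldha, for glycolytic enzymes, were 109 CPM in sham and 912 CPM in stroke and 113 CPM in sham and 606 CPM in stroke in microglia (differences -1.98, adjusted p 8.94e-06 and -1.18, adjusted p 0.0056). Klf4 and Jun were lower after stroke in both types, with the larger relative change in microglia, where Klf4 was 138 CPM in sham and 11.7 CPM in stroke (difference 1.71, adjusted p 0.0132) and Jun 3154 CPM in sham and 505 CPM in stroke (difference 1.40, adjusted p 0.0224). The genes compared with microglia were singled out after their values were seen. Markers of other cell types were not compared between sham and stroke in the microglial sums. Cells coded MdC held Vim at 2979 CPM, and cells coded DC held Ifitm3 at 4350 CPM. The part of such RNA in the microglial changes was not tested. With a block for the replicate number the interaction called 168 genes, and without stroke replicate 1 it called 328.

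**Figure D5:**
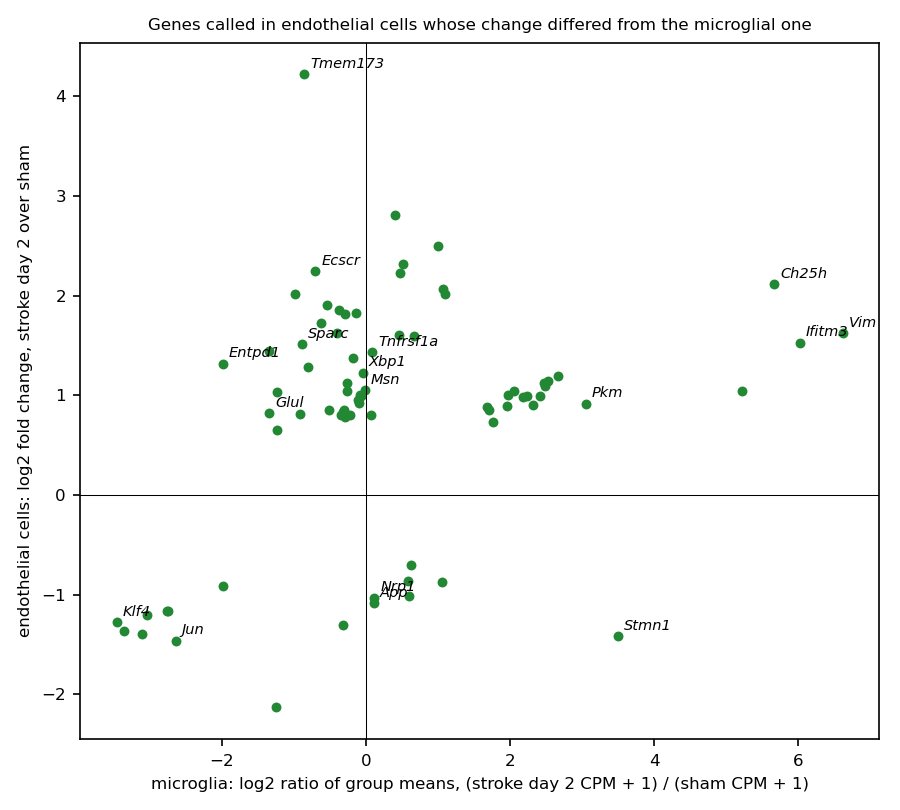
Endothelial log2 fold change (vertical axis) against the microglial log2 ratio of group means with 1 CPM added (horizontal axis) for genes called in endothelium whose stroke change differed between both types and that had at least 20 CPM in each. Sparc, Ecscr and Tmem173 lie in the upper left, higher in endothelium and lower in microglia, and Stmn1 lies in the lower right.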

How the data were processed

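Drop-seq libraries of sorted mouse brain cells were used as 1 table of genes by cells each. The values are expected counts of transcripts, slightly under whole numbers, as the authors deposited them, with mm10 and Seurat named in the submitters' processing notes. The aligner and counter are not given in the sources used here, and the labels do not state how the counts were corrected. The authors' deposited metadata gave cell codes, the number of genes counted in each cell and the percent of its counts that were mitochondrial.

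Counts of EC cells were summed per library and rounded. Genes were kept by filterByExpr of edgeR 4.0.16 (R 4.3.3), scaled by TMM and tested by quasi-likelihood, with young sham, stroke day 2 and stroke day 14 in 1 fit. A gene was called at a Benjamini-Hochberg adjusted p under 0.05. Levels are CPM on the TMM-scaled library size. The aged comparison came from 1 fit of the 4 day 2 groups, and the microglial one from a fit with a term for each library. DESeq2 1.42.0 was an alternative. No doublet step is stated in the sources used here, no cell was removed, and Scrublet in scanpy 1.11.5 marked 0 EC cells in the 8 libraries. It marked at most 0.0565% of all cells in any of the 8, so this 0 cannot show that the EC sums were free of doublets.

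Named were called genes with separate groups, the 12 highest and 12 lowest with a mean of at least 20 CPM and the 6 highest and 6 lowest with at least 300, and up to 5 called genes of each list by p. Where fewer than 2 were called, the 2 with the highest mean were named. Predicted, mitochondrial, ribosomal protein and haemoglobin genes were left out, as were genes whose CPM in another code with 500 or more cells exceeded 10 times that in EC. Members and lists were chosen with earlier results of these data known.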

Additional observations from a re-analysis of the deposited data

Results flagged for a closer look

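In 14 of 236 sets of 4 libraries (5.93%) 1 library stood far from the other 3. The rule was Dixon's ratio, the gap to the nearest value over the range, with a limit meant for about 1 in 20 sets of normally distributed values. The sets share libraries and are mostly genes chosen for their calls, so that rate is no exact measure here. In sham replicate 1, Adamts9 was at 12.96 CPM where the other 3 sham libraries were at 0, Igfbp4 at 31.1 CPM, S100a11 at 533.9 CPM, Slco1a4 at 2856 CPM, Ctgf at 28.51 CPM and Esyt2 at 272.1 CPM. The median mitochondrial share of its endothelial cells was 0.8072%. Sham replicate 2 had Ctla2a at 1849 CPM, sham replicate 3 had Ddx60 at 73.11 CPM, and sham replicate 4 had Ocln at 117.9 CPM. Among stroke libraries, replicate 1 had Tfrc at 175 CPM, replicate 2 had Slc39a10 at 390.2 CPM and Amot at 0 CPM, and replicate 3 had Esyt2 at 224.8 CPM.

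The stroke change differed between endothelial cells and microglia in 636 genes by the test of the interaction.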

How the results depend on the processing

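The 778 calls were 320 to 991 with 1 library left out, 415 in cells with at least 500 counts and 40 among the 3 libraries with a mitochondrial share under 2%, where 1 sham library was compared with 2 of stroke. They were within 1.5 times under every other alternative that was run. Of 113 named called genes, 74 kept their call without any single library. Ctgf was the 1 named gene that reversed, to 0.64 in the libraries with the lower mitochondrial share, and the cause was not tested. The aged count of 40 was 108 with DESeq2, 135 without a filter on low counts and 0 to 26 with 1 library left out. The age interaction gave 124 without that filter. The comparison with microglia gave 168 with a replicate block and 328 to 588 with 1 library left out, and the causes were not tested. The difference in endothelial share kept its direction and stayed above 0.05 throughout. Replicate numbers were not used as pairs. Same-numbered sham and stroke libraries correlated at 0.0088, -0.10, -0.031 and -0.018, and such values cannot show whether libraries shared a surgery day. With the replicate number as a block 766 genes were called, 676 of the 778 among them. The settings by mitochondrial share, and the 1 without stroke replicate 3 in the microglial comparison, were chosen after seeing the data. Depth limits genes with few counts, as sham endothelium had 100317 to 377240 counts per library.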
